A study of Mus musculus with 12 samples.

Results

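The suppressors of cytokine signalling (SOCS) were followed in mouse spleen through their 8 genes, Socs1 to Socs7 and Cish, in the presence and absence of ficolins and with and without LPS challenge. The genes were found by symbol among the rows of the array table that are annotated to a single gene. All 8 were present, among 22180 genes with such a row, and 11 probe sets in all carried their symbols. Of several probe sets of a gene the one with the highest mean over the 12 arrays was used. The arrays were Affymetrix Mouse Gene 2.0 ST arrays, 1 per mouse, in 4 groups of 3 female C57BL/6 mice aged 10 weeks. LPS challenged ficolin KO mice and LPS challenged WT mice had received 10 mg/kg LPS i.p. 6 h before sacrifice, and naive ficolin KO mice and naive WT mice were untreated, so that no injected control stood beside the LPS challenged mice. Ficolin KO mice were deficient in ficolin-A and ficolin-B, and both genotypes were bred as homozygotes from offspring of heterozygous crosses.

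SOCS proteins are feedback inhibitors of the JAK-STAT pathway. A cytokine that binds its receptor activates Janus kinases, these phosphorylate the receptor and STAT transcription factors, and STATs switch on SOCS genes among others. Each SOCS protein binds phosphotyrosine through an SH2 domain and recruits a ubiquitin ligase through a C-terminal SOCS box, and SOCS1 and SOCS3 also carry a short region that blocks the kinase itself. In the spleen, SOCS1 is known as a brake on interferon-gamma signalling and SOCS3 as a brake on interleukin-6 and G-CSF signalling.

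Promoters are shown for Socs1, Socs3 and Cish, since these genes rose with LPS and their windows held letters of a STAT or interferon-response motif. RefSeq (GRCm38.p6) windows were matched for 4 of the 8 genes, Socs1, Socs3, Socs4 and Cish, and not for Socs2, Socs5, Socs6 and Socs7. Each stretch runs 5′ to 3′ from 250 bases before the annotated start to 30 bases after it, and capitals mark matches to the STAT motif TTCNNNGAA, which reads the same on both strands, or to the interferon-response motif core GAAANNGAA, searched on both strands.
Socs1, chr16:10785507-10785786, minus strand: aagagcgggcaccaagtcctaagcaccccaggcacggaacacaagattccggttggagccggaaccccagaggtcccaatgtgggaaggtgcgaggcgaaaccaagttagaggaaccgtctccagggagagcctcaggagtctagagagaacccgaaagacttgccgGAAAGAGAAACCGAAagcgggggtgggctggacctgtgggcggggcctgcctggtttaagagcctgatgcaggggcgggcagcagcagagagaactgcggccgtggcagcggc
Socs3, chr11:117969337-117969616, minus strand: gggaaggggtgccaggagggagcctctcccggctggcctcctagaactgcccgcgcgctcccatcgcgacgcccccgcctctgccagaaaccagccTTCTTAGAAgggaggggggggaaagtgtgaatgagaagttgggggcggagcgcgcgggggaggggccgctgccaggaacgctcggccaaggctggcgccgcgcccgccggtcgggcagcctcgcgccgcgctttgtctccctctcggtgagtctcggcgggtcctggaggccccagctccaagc
Cish, chr9:107296409-107296688, plus strand: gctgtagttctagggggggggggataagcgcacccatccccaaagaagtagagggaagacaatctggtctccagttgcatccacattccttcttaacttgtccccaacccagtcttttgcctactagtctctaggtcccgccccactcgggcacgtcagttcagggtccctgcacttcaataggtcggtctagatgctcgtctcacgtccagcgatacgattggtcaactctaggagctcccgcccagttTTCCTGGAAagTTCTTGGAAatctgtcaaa
Over the whole windows of 300 bases, Socs1 held 2 interferon-response cores that overlap each other, between 83 and 69 bases before the start, and no STAT motif. Socs3 held 1 STAT motif, from 154 to 146 bases before the start. Cish held 2 STAT motifs at the start itself, on bases 1 to 9 and 12 to 20 of the transcript. Socs4 held neither. Among all 32851 windows of this length, 8.30% held the STAT motif and 8.56% the interferon-response core. These are matches of letters and no binding was measured.

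The targeted gene Fcna differed between the genotypes without overlap, with log2 intensities of 3.98 to 4.85 in the 6 ficolin KO mice and 7.92 to 9.38 in the 6 WT mice. Fcnb lay between 3.18 and 3.69 in all 12 mice and could not check its deletion in spleen. The median of an array was 4.17 to 4.27, and no detection calls were available, so a gene near this level may not be expressed. Correlations across probe sets, which are no replicates, were 0.978 to 0.986 between arrays within a group and 0.937 to 0.958 between LPS challenged and naive arrays.

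After LPS challenge, Socs1, Socs2 and Socs3 rose in both genotypes and Cish rose past the criteria in WT mice, whereas Socs4, Socs5, Socs6 and Socs7 did not meet them. The criteria were a fold-change over 2 and an adjusted p under 0.05 from limma. In LPS challenged against naive ficolin KO mice 3 of the 8 genes were called, all higher, while 8.63% of all genes were called and 4.22% were called and higher. In LPS challenged against naive WT mice 4 of the 8 were called, all higher, where 8.99% of all genes were called and 4.05% were called and higher. The 3 genes called and higher in both genotypes stand beside 3.55% of all genes. With no fold criterion, Socs7 and Cish joined the higher genes, giving 5 of 8 in each genotype, against 12.9% of all genes in ficolin KO and 13.4% in WT mice. Socs5 was then lower in WT mice (1 of 8, against 16.7% of all genes) and no gene of the family was called lower in ficolin KO mice (14.9% of all genes), where Socs5 alone was lower at an unadjusted p under 0.05. Values of LPS challenged and naive mice did not overlap for 6 of the 8 genes in either genotype, all but Socs4 and Socs6, where 39.7% of all genes did not overlap in ficolin KO and 40.7% in WT mice. The median of the 8 log2 fold-changes was 0.75 with LPS in ficolin KO mice, where all genes had -0.01, and 0.85 in WT mice, where all genes had 0.01. In whole spleen, fewer cells of a type and less RNA per cell cannot be told apart.

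**Figure D1:**
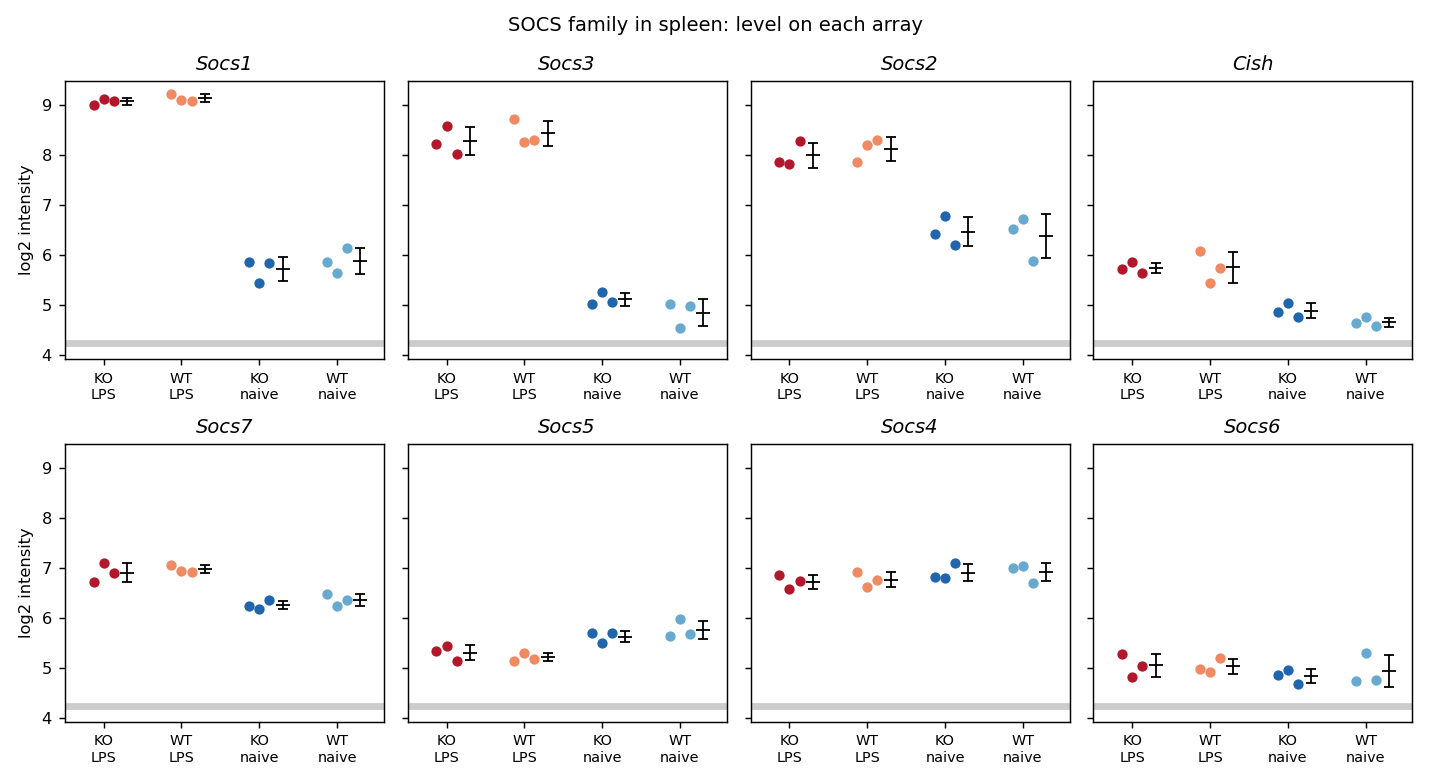
Log2 intensity (vertical axis) of each gene of the SOCS family on each of the 12 arrays, by group. Points are mice, black bars are the mean ± SD of 3 mice, and the grey band is the range of array medians, 4.17 to 4.27; Socs1, Socs3, Socs2 and Cish lie higher on all LPS challenged arrays than on all naive arrays, and Socs4 and Socs6 overlap.

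Socs1, which encodes the inhibitor of JAK kinases downstream of interferon-gamma, was among the genes of the array that rose most. Of the 4 promoter windows matched, that of Socs1 alone held interferon-response cores. Whether any promoter motif bears on a rise was not tested. The log2 intensities of Socs1 were 9.0, 9.13 and 9.09 in LPS challenged ficolin KO mice, against 5.86, 5.44 and 5.84 in naive ficolin KO mice. In WT mice they were 9.23, 9.10 and 9.08 after LPS challenge, against 5.86, 5.63 and 6.14 in naive mice. Every LPS challenged array thus lay well above every naive array, and the arrays of both genotypes interleaved within each state. The log2 fold-change was 3.36 (SE 0.145) in ficolin KO mice, a 10.3-fold rise (95% interval 8.28 to 12.7, adjusted p = 4.69e-10 from limma). It was 3.26 (SE 0.145) in WT mice, a 9.58-fold rise (95% interval 7.73 to 11.9, adjusted p = 5.98e-10 from limma). Ordered by log2 fold-change among the 22180 genes, Socs1 was number 34 of the rises in ficolin KO mice and number 54 in WT mice. The SD between LPS challenged mice was 0.07 in ficolin KO and 0.08 in WT mice, and that between naive mice 0.24 and 0.26.

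Socs3, the inhibitor of signals through gp130 and the G-CSF receptor, also rose by over 3 log2 units. A STAT motif lay in its promoter window, as in that of Cish, which rose less. The log2 intensities of Socs3 were 8.23, 8.58 and 8.03 in LPS challenged ficolin KO mice, against 5.02, 5.26 and 5.05 in naive ficolin KO mice. In WT mice they were 8.73, 8.27 and 8.30 after LPS challenge, against 5.02, 4.53 and 4.98 in naive mice. The states did not overlap in either genotype, and the highest LPS value and the lowest naive value both belonged to WT mice. The rise was 9.0-fold in ficolin KO mice (log2 fold-change 3.17, SE 0.17, adjusted p = 4.57e-09 from limma) and 12.04-fold in WT mice (log2 fold-change 3.59, SE 0.17, adjusted p = 1.44e-09 from limma). Socs3 was number 43 of the rises in ficolin KO mice and number 34 in WT mice.

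Socs2, which is best known as a brake on growth hormone receptor signalling, rose less and varied more. Its log2 intensities were 7.87, 7.83 and 8.29 in LPS challenged ficolin KO mice, against 6.42, 6.78 and 6.21 in naive ficolin KO mice. In WT mice they were 7.86, 8.21 and 8.31 after LPS challenge, against 6.53, 6.73 and 5.88 in naive mice. The lowest LPS challenged array lay above the highest naive array in both genotypes. The log2 fold-change was 1.53 (SE 0.21, 2.88-fold, adjusted p = 5.03e-05 from limma) in ficolin KO mice and 1.75 (SE 0.21, 3.36-fold, adjusted p = 1.30e-05 from limma) in WT mice.

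Cish encodes CIS, the founding member of the family, which STAT5 induces and which restrains interleukin-2 signalling in T cells. It had log2 intensities of 5.72, 5.85 and 5.64 in LPS challenged ficolin KO mice, against 4.86, 5.04 and 4.75 in naive ficolin KO mice. In WT mice they were 6.07, 5.44 and 5.74 after LPS challenge, against 4.64, 4.75 and 4.57 in naive mice. LPS challenged arrays were higher than naive arrays in both genotypes, and the naive values lay less than 1 log2 unit above the array medians. The rise was 1.81-fold in ficolin KO mice (log2 fold-change 0.85, SE 0.15, adjusted p = 3.53e-04 from limma), which falls short of the fold criterion, and 2.14-fold in WT mice (log2 fold-change 1.10, SE 0.15, adjusted p = 3.35e-05 from limma). The 2 responses were not shown to differ, since their difference was -0.24 on the log2 scale with a 95% interval of -0.69 to 0.20. Without WT LPS replicate 1, the highest of its group, the log2 fold-change in WT mice was 0.94 and no longer met the fold criterion.

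**Figure D2:**
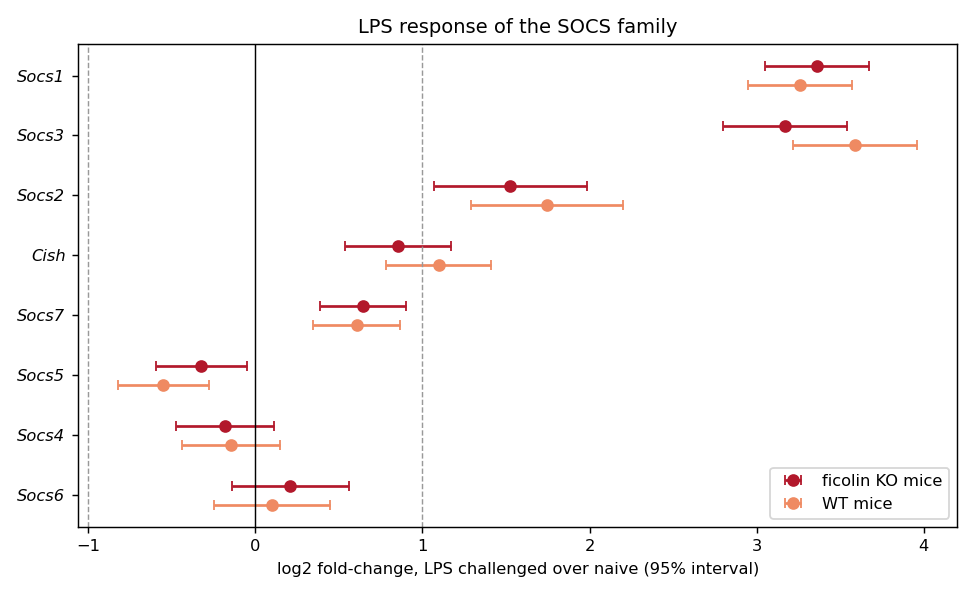
Log2 fold-change of LPS challenged over naive mice (horizontal axis) for each gene of the SOCS family (rows), with 95% intervals from limma, in ficolin KO mice (upper point) and WT mice (lower point). Dashed lines mark a fold-change of 2 in either direction; the intervals of Socs1, Socs3 and Socs2 lie beyond it in both genotypes and those of Cish span it.

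The other 4 genes moved by less than 2-fold. Socs7, whose product binds insulin receptor substrates, had log2 intensities of 6.72, 7.09 and 6.89 in LPS challenged ficolin KO mice, against 6.24, 6.18 and 6.35 in naive ficolin KO mice. In WT mice Socs7 had 7.06, 6.93 and 6.91 after LPS challenge, against 6.48, 6.24 and 6.36 in naive mice. The states did not overlap, and the rises were 1.56-fold in ficolin KO mice (log2 fold-change 0.64, SE 0.12, adjusted p = 7.39e-04 from limma) and 1.52-fold in WT mice (0.61, SE 0.12, adjusted p = 0.00115 from limma). Socs5, which has been linked to signalling of the EGF and interleukin-4 receptors, had 5.34, 5.43 and 5.13 in LPS challenged ficolin KO mice, against 5.69, 5.49 and 5.69 in naive ficolin KO mice. In WT mice Socs5 had 5.14, 5.30 and 5.18 after LPS challenge, against 5.63, 5.97 and 5.67 in naive mice. LPS challenged arrays were lower in both genotypes, by a narrow margin in ficolin KO mice. Its log2 fold-change was -0.32 in ficolin KO mice (SE 0.13, adjusted p = 0.0739 from limma) and -0.55 in WT mice (SE 0.13, adjusted p = 0.00350 from limma), so that an adjusted p under 0.05 was reached in WT mice. The difference of 0.23 between these responses had a 95% interval of -0.16 to 0.61. Socs4, also linked to the EGF receptor, lay between 6.57 and 7.10 on all 12 arrays, with log2 fold-changes of -0.18 in ficolin KO mice (95% interval -0.48 to 0.11) and -0.15 in WT mice (-0.44 to 0.15). Socs6, a close relative of Socs7, lay between 4.68 and 5.30 and had log2 fold-changes of 0.21 in ficolin KO mice (95% interval -0.14 to 0.56) and 0.10 in WT mice (-0.25 to 0.45). Neither passed the test, and a change of 1.5-fold lay outside all 4 of these intervals.

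Next, levels in ficolin KO and WT mice were compared within each state, using a fold-change over 1.5 and an unadjusted p under 0.05 as criteria. None of the 8 genes met them after LPS challenge (0.460% of all genes did) or in the naive state (0.185%). None had an unadjusted p under 0.05 by limma or by ordinary least squares, and the smallest values from limma were 0.393 after LPS challenge and 0.140 in naive mice. The values of ficolin KO and WT mice overlapped for every gene of the family in both states, where 10.9% of all genes did not overlap after LPS challenge and 6.28% in naive mice. In LPS challenged mice the differences, ficolin KO minus WT, ran from -0.15 for Socs3 to 0.09 for Socs5 on the log2 scale. The widest interval there was that of Socs2, which spans folds of 0.667 to 1.25, so that a difference over 1.5-fold was outside the intervals of all 8 genes except at the lower edge of Socs2. In naive mice the differences ran from -0.16 for Socs1 to 0.27 for Socs3, and the interval of Socs3 reached a fold of 1.56. The differences between the LPS responses ran from -0.42 for Socs3 (95% interval -0.95 to 0.11) to 0.23 for Socs5, with a smallest adjusted p of 0.998 from limma. None was called at an adjusted p under 0.05, where 0.00902% of all genes were. No gene of the family reached an unadjusted p under 0.05 for it by limma or by ordinary least squares. Socs3 reached it without KO LPS replicate 2 (-0.57, adjusted p = 0.997 from limma) and with a covariate for the exocrine pancreas genes (-0.77, adjusted p = 0.996 from limma). Its adjusted p was 0.948 or above with each of 22 alternatives, and with probe sets averaged the difference was -0.09. The comparisons of genotypes and of responses share arrays and are not independent.

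**Figure D3:**
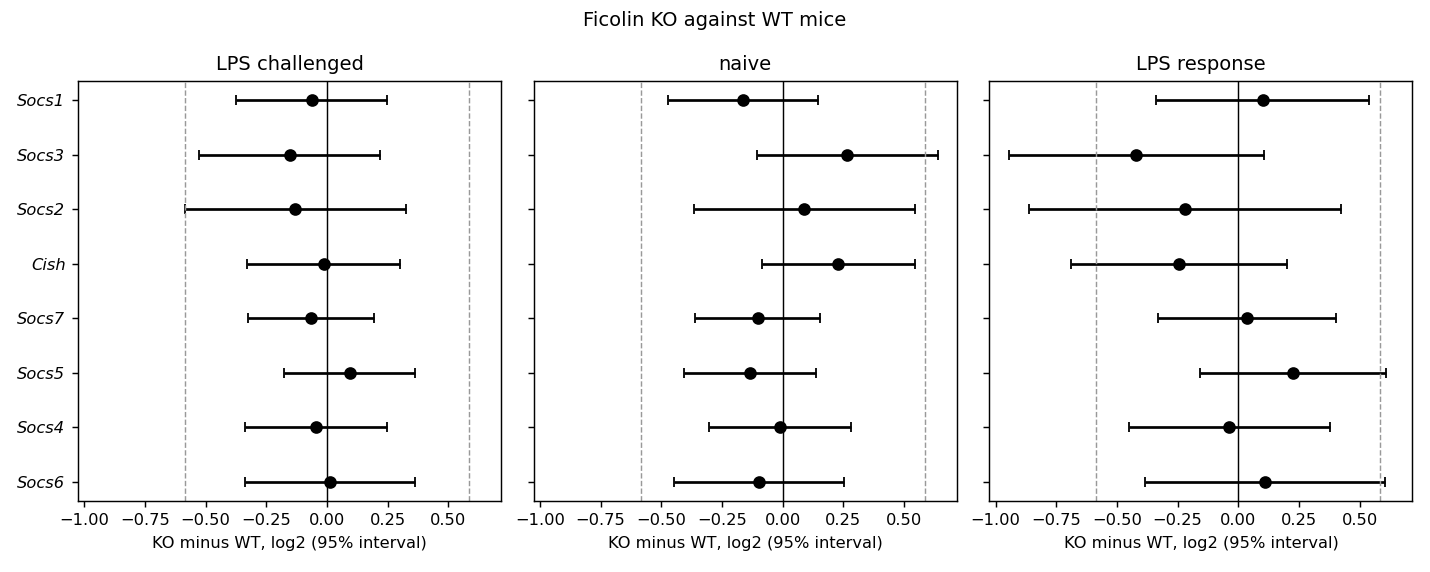
Log2 difference of ficolin KO minus WT mice (horizontal axis) for each gene of the SOCS family (rows) after LPS challenge, in the naive state, and between the LPS responses, with 95% intervals from limma. Dashed lines mark a fold-change of 1.5; every interval includes 0, and those of the responses are the widest, with Socs3 lowest at -0.42.

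Socs3, Socs2 and Cish had another, dimmer probe set annotated to the same symbol. Which exons and which strand these probe sets cover is not given in the sources used here, so the probe sets of a gene may not measure the same transcript. LPS challenged mice were higher there in both genotypes for all 3 genes, with an adjusted p under 0.05. For Cish, the dimmer probe set had 6.40, 5.68 and 5.71 in LPS challenged ficolin KO mice, against 4.17, 3.99 and 4.28 in naive ficolin KO mice. In WT mice Cish had 6.12, 5.87 and 6.07 there after LPS challenge, against 4.66, 4.44 and 4.39 in naive mice. Its log2 fold-changes were larger than those of the brighter probe set and met the criteria in both genotypes, with 1.78 (SE 0.17, adjusted p = 1.43e-06 from limma on all probe sets) in ficolin KO mice and 1.52 (SE 0.17, adjusted p = 6.66e-06) in WT mice. The order of the genotypes' responses was thus opposite on the 2 probe sets of Cish, and averaging them gave 1.32 in ficolin KO mice, which met the criteria, and a difference between the responses of 0.01. For Socs3, the dimmer probe set averaged 5.95 ± 0.45 in LPS challenged ficolin KO mice and 3.55 ± 0.10 in naive ficolin KO mice, and 5.96 ± 0.46 in LPS challenged WT mice and 3.81 ± 0.10 in naive WT mice (SD, n = 3 each). The naive values are below every array median, so that the gene may not be above background there, and the log2 fold-changes were 2.40 in ficolin KO and 2.15 in WT mice. The difference of Socs3 between naive ficolin KO and naive WT mice had opposite signs on the 2 probe sets, with 0.27 on the brighter and -0.26 on the dimmer one, and neither passed the test. For Socs2, the dimmer probe set gave log2 fold-changes of 0.75 in ficolin KO and 0.81 in WT mice, under the fold criterion but with adjusted p-values of 2.50e-04 and 1.19e-04 from limma.

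**Figure D4:**
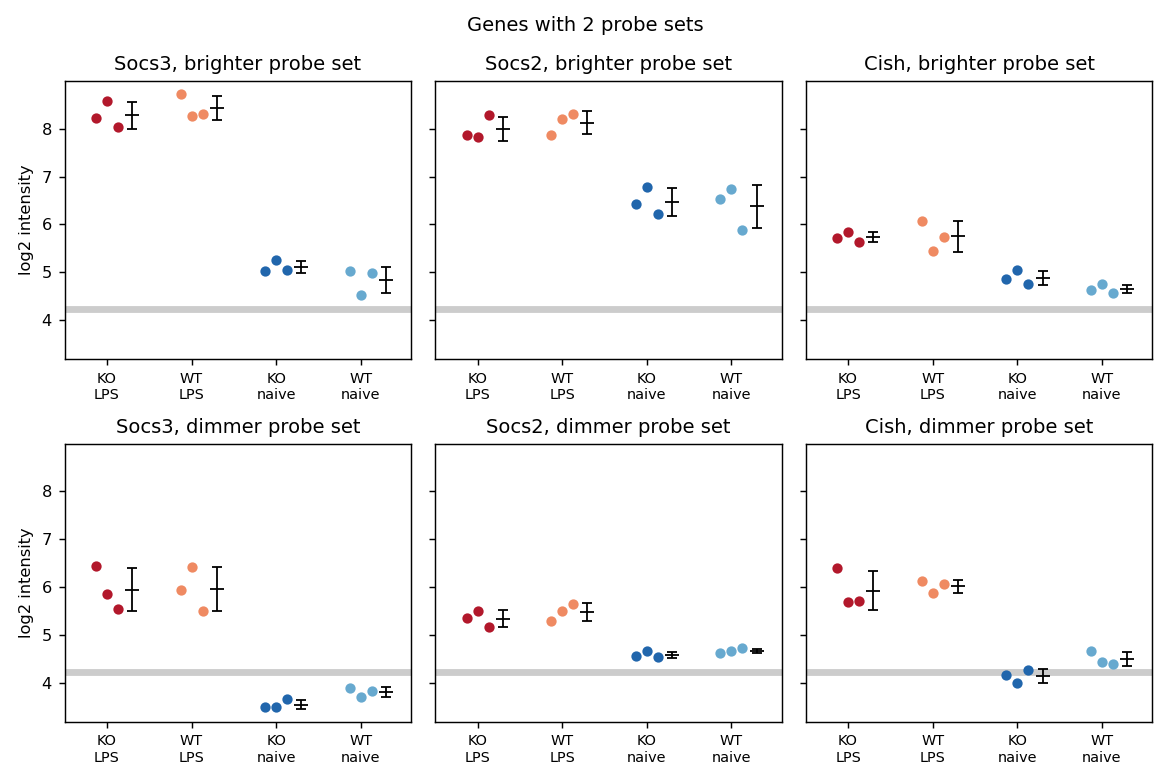
Log2 intensity (vertical axis) of the brighter probe set (top row) and the dimmer probe set (bottom row) of Socs3, Socs2 and Cish on each array, by group. Points are mice, black bars the mean ± SD of 3 mice, and the grey band the range of array medians, 4.17 to 4.27; LPS challenged arrays are higher on all 6 probe sets.

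The mice of a group were not ordered alike by all genes of the family. KO LPS replicate 2 was the highest of its 3 mice for 5 genes (Socs1, Socs3, Socs5, Socs7 and Cish) and the lowest for 3 (Socs2, Socs4 and Socs6). WT LPS replicate 1 was likewise the highest for 5 genes (Socs1, Socs3, Socs4, Socs7 and Cish) and the lowest for 2 (Socs2 and Socs5). On the brighter probe sets, the mouse with the most Socs3 in both LPS challenged groups thus also had the most Socs1, Socs7 and Cish and the least Socs2. The dimmer probe set of Socs3 was instead highest in KO LPS replicate 1 (6.44) and WT LPS replicate 2 (6.42). In KO LPS replicate 2, the dimmer probe set of Cish was the lowest (5.68) and that of Socs2 the highest (5.51). In WT LPS replicate 1 they kept the order of the brighter ones (6.12 and 5.29). These orders describe 3 mice per group and were not tested.

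Genes of the pathway around the SOCS family were then counted by role, with 97 of 104 listed genes measured by a probe set of their own. Of all genes, 8.63% were called with LPS in ficolin KO and 8.99% in WT mice, and 4.22% and 4.05% were called and higher. Of 22 cytokines that signal through JAK kinases, 9 rose in ficolin KO and 8 in WT mice, and none fell by the criteria. Interleukin-6, an inducer of Socs3 through gp130, had log2 intensities of 8.96, 8.38 and 9.34 in LPS challenged ficolin KO mice, against 3.16, 3.24 and 3.68 in naive ficolin KO mice. In WT mice Il6 had 8.98, 8.22 and 9.26 after LPS challenge, against 3.38, 3.22 and 2.80 in naive mice. Il6 lay below every array median in naive mice, so that its log2 fold-changes of 5.53 in ficolin KO and 5.69 in WT mice may understate the rise. The same holds for Ifng, the interferon-gamma gene and an inducer of Socs1, at 5.23 and 5.11. Il27 (3.38 and 3.33) and Csf3, which encodes G-CSF (2.42 and 2.74), completed the 4 largest rises.

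Of 26 measured receptors, 5 rose and 2 fell in ficolin KO mice, whereas 6 rose and 4 fell in WT mice. The share of all genes called in either direction was 8.63% and 8.99%, and that called and higher 4.22% and 4.05%. The rises included Il2ra, the interleukin-2 receptor alpha chain (3.85 in ficolin KO and 3.30 in WT mice on the log2 scale), Il15ra (2.38 and 2.56) and Il12rb2 (1.81 and 1.81). Il27ra, the receptor of interleukin-27, fell (-1.40 and -1.61). Of the kinases, Jak1, Jak2 and Tyk2 had log2 fold-changes of -0.26, 0.41 and -0.53 in ficolin KO and -0.43, 0.28 and -0.52 in WT mice, and none met the criteria. Tyk2 was lower at an adjusted p under 0.05 by limma in both genotypes, and Jak1 in WT mice. Among 6 measured STAT genes, Stat2 (1.69 and 1.66), Stat3 (1.66 and 1.39) and Stat5a (1.05 and 1.10) rose in both genotypes, and Stat4 (0.23 and -0.21), Stat5b (0.25 and 0.06) and Stat6 (0.31 and 0.25) did not meet the criteria. Stat3 is the transcription factor known to act on Socs3, and Stat5a one of those known to act on Cish.

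The ligase that the SOCS box recruits is built of elongins, a cullin and a RING protein. None of the 5 measured genes met the criteria in either genotype, where 8.63% of all genes did in ficolin KO and 8.99% in WT mice. The counts of 0 of 5 here and 1 of 10 in the next list are near these shares. In ficolin KO and WT mice the log2 fold-changes were -0.30 and -0.11 for Elob, 0.26 and -0.08 for Eloc, 0.41 and 0.18 for Cul5, -0.01 and -0.04 for Rnf7, and 0.66 and 0.31 for Cul2. Of 10 other proteins with a SOCS box, Asb2 fell in both genotypes, at 6.77, 6.77 and 6.86 in LPS challenged ficolin KO mice, against 8.82, 8.84 and 9.10 in naive ficolin KO mice, a log2 fold-change of -2.12 (-1.72 in WT mice). The other 9 lay between -0.16 and 0.81 and did not meet the criteria. Of these, Spsb1 (0.74 and 0.81), which targets the inducible nitric oxide synthase, and Wsb1 (0.72 and 0.54) had an adjusted p under 0.05 in both genotypes by limma, as did Asb13 (0.54 and 0.57), whereas Spsb2, Spsb3, Spsb4, Wsb2 and Asb7 had none in either. Cul2 and Cul5 had one in ficolin KO mice, as did Asb8. With no fold criterion, 12.9% of all genes in ficolin KO and 13.4% in WT mice were higher at that level.

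Beside 3.55% of all genes called and higher in both genotypes, 4 of 14 genes listed as other brakes of the pathway rose in both. These were Usp18, which restrains type I interferon signalling (3.05 in ficolin KO and 3.61 in WT mice), Dusp1 (2.35 and 2.25), whose product is a phosphatase of MAP kinases and not of JAK kinases, and Ptpn1 (1.43 and 1.31) and Ptpn2 (1.10 and 1.10), phosphatases that act on JAK kinases. Ptprc, which encodes the leukocyte phosphatase CD45, fell by the criteria in WT mice (-1.05) and had -0.93 in ficolin KO mice. Short of the fold criterion, Ptpn6 (-0.85 and -0.78), Cbl (-0.45 and -0.65) and Pias3 (-0.49 and -0.45) were lower in both genotypes at an adjusted p under 0.05 by limma. Pias2, Ptpn11 and Cblb were higher at that level in ficolin KO mice alone. Among 11 measured genes listed as STAT-induced, 9 rose in both genotypes, including Cxcl10 (4.36 and 5.09), Myc (2.63 and 2.57), Tnfaip3 (2.44 and 2.46) and Irf1 (2.16 and 2.03). The part of STATs in these rises was not tested. Cxcl10 was the 1 gene of these lists that met the criteria between genotypes, with 7.91, 7.85 and 7.64 in naive ficolin KO mice, against 7.11, 6.95 and 7.49 in naive WT mice. In the naive state 0.185% of all genes met them. No gene of the lists met the criteria between genotypes after LPS challenge, and none was called when the responses were compared by limma.

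**Figure D5:**
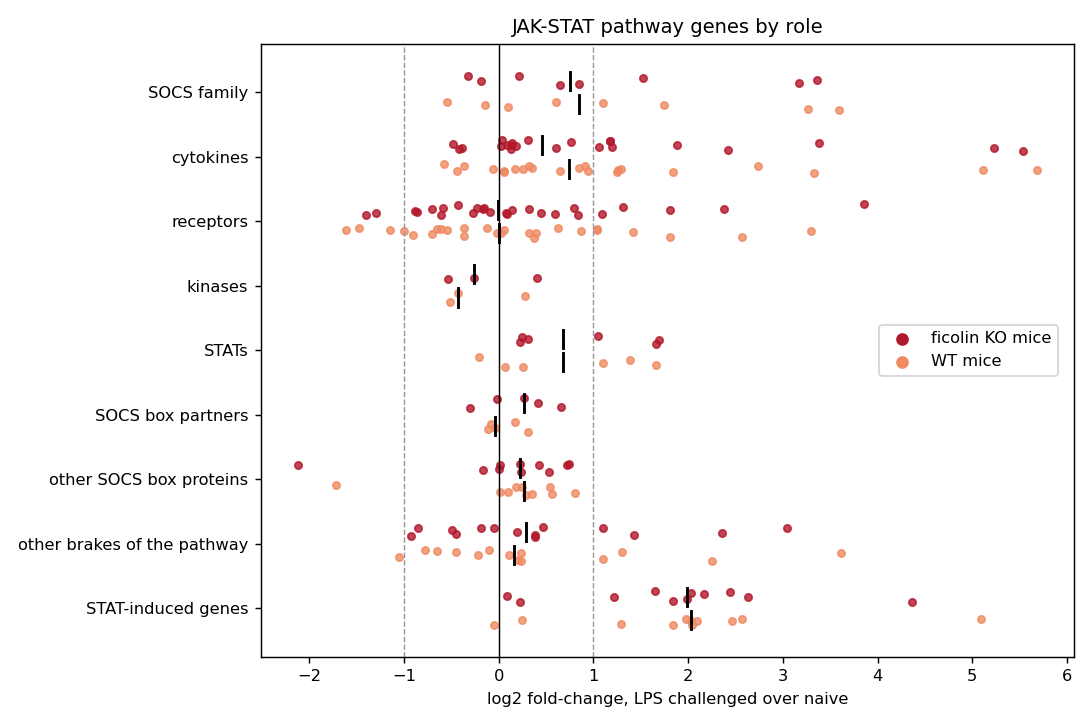
Log2 fold-change of LPS challenged over naive mice (horizontal axis) for the genes of the SOCS family and of 8 lists of JAK-STAT pathway genes (rows), in ficolin KO mice (upper points) and WT mice (lower points). Each point is a gene, black ticks are medians and dashed lines mark a fold-change of 2. The genes listed as STAT-induced have the highest medians, 1.99 and 2.03, and the SOCS box partners stay within the dashed lines.

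The genes with the pattern most like each of the 3 genes called in both genotypes were sought by the root mean square distance between log2 values over the 12 arrays, each gene centred on its own mean. For Socs1 the nearest were Ms4a6d (distance 0.18), Tarm1 (0.18), Il27 (0.20) and Mir1949 (0.21). For Socs3 they were Slc1a4 (0.18), Car13 (0.20), Adamts4 (0.21) and Usp18 (0.21), and for Socs2 they were Tnfsf10 (0.21), Nlrp3 (0.23), Taf4b (0.23) and Lilrb4a (0.23). Of 22179 genes, Il27, a cytokine of the same pathway, was thus among the nearest to Socs1, and Usp18, a brake of it, among the nearest to Socs3. The distance tends to be small for genes with a like LPS change. Il27 had log2 fold-changes of 3.38 in ficolin KO and 3.33 in WT mice, and Usp18 3.05 and 3.61.

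Cell type markers also moved with LPS challenge, while 8.63% of all genes in ficolin KO and 8.99% in WT mice were called. The mean log2 intensity of 5 B cell markers was 8.5 to 8.69 in LPS challenged ficolin KO and 8.52 to 8.66 in LPS challenged WT mice, against 10.5 to 10.7 in the naive mice of either genotype, and all 5 fell. The mean of 5 T cell markers was 6.59 to 6.87 in LPS challenged ficolin KO and 6.75 to 6.88 in LPS challenged WT mice, against 8.01 to 8.24 in naive mice, and 5 fell in ficolin KO and 3 in WT mice. The mean of 6 markers of red pulp macrophages was 7.60 to 7.83 in LPS challenged mice, against 9.22 to 9.57 in naive mice, and 5 fell in ficolin KO and 4 in WT mice. The means of the B cell, T cell and red pulp macrophage markers were thus lower on every LPS challenged array than on every naive array. Of 4 NK cell markers 2 fell and of 4 monocyte markers 1 rose and 2 fell in each genotype, and none of 6 neutrophil markers met the criteria. The part of these shifts in the changes of Socs5 or of the rising genes was not tested. The mean of 7 exocrine pancreas genes was 4.05 to 8.76 in LPS challenged ficolin KO mice, against 9.30 to 11.3 in LPS challenged WT mice, and 9.45 to 11.02 in naive ficolin KO mice, against 8.69 to 10.5 in naive WT mice. All 7 were called lower with LPS in ficolin KO mice and none in WT mice. With this mean as a covariate the same counts of SOCS genes were called in every comparison. The mean can hardly be told apart from the group of LPS challenged ficolin KO mice, so this is a weak check.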

How the data were processed

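Spleen RNA was measured with 1 array per mouse. The authors applied quantile normalization and RMA with Qlucore Omics Explorer, and deposited log2 intensities for 41345 probe sets on 12 arrays, which range from 1.38 to 13.86. Raw arrays were not used here and no genome build is given for the array table in the sources used here. Rows annotated to more than 1 symbol (1820) or to no symbol (16004) were not used, and a gene was represented by its brightest row (22180 genes, no filter on low values).

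A linear model with 4 group means was fitted to all 12 arrays and moderated with eBayes (limma 3.58.1, R 4.3.3), with 8 residual and 6.67 prior degrees of freedom, and p-values were adjusted over all genes by the Benjamini-Hochberg method. Following the study's methods, genes were called with LPS above 2-fold at an adjusted p under 0.05, and between genotypes above 1.5-fold at an unadjusted p under 0.05. Differences between the responses were called at an adjusted p under 0.05. A fold-change of exactly 2 was not called. The median standard error of a log2 fold-change was 0.14, and the number of arrays limits the precision. The fit was tested on simulated data. The 3 replicates are separate mice, and no pair of arrays held identical values. The members, lists and tests were chosen with earlier results of these data known. Named genes were the 8 of the family, of each pathway list up to 4 genes with the largest changes called in both genotypes and whole lists of 10 or fewer, the 4 genes of most similar pattern, and Fcna and Fcnb. Ptprc, Ptpn6, Cbl, Pias3, Pias2, Ptpn11 and Cblb were named after their values were seen. Some listed genes of the pathway are not reported here. Levels of different probe sets were not compared with each other. Promoter windows came from RefSeq (GRCm38.p6).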

Additional observations from a re-analysis of the deposited data

How the results depend on the processing

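The calls of Socs1, Socs2 and Socs3 after LPS challenge were kept in both genotypes with all 24 alternatives of each comparison. Their log2 fold-changes ranged from 3.22 to 3.43 in ficolin KO and 3.14 to 3.39 in WT mice for Socs1, from 2.79 to 3.30 and 2.87 to 3.68 for Socs3, and from 1.14 to 1.79 and 1.28 to 1.92 for Socs2. With no fold criterion the count was 5 instead of 3 in ficolin KO mice and 6 instead of 4 in WT mice. That alternative can only add calls, and leaving out an array of the other genotype keeps the estimate, so these put the calls to little test. Apart from averaging, the alternatives used the brighter probe sets. On its dimmer one, Socs2 missed the fold criterion (0.75 in ficolin KO and 0.81 in WT mice). Cish met the criteria in ficolin KO mice with probe sets averaged (1.32), and Socs5 in WT mice had an adjusted p of 0.0529 by ordinary least squares.

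No gene of the family was called between genotypes or between responses with any alternative. Several of these small differences changed sign without being called. With array weights, Socs6 became 0.0106 in naive mice, Cish 0.0084 after LPS challenge, and the responses 0.0005 for Socs4 and -0.0024 for Socs6. With a covariate for exocrine pancreas genes, Socs4 was 0.008 in naive mice and Socs2 0.1436 after LPS challenge and 0.0931 between responses. With probe sets averaged Cish was -0.06 in naive mice and 0.0083 between responses, and with quantile normalization again Socs6 was -0.0028 after LPS challenge. Leaving out each array gave, in naive mice, -0.16 to 0.265 for Socs2, -0.115 to 0.055 for Socs4 and -0.1917 to 0.0883 for Socs6. After LPS challenge it gave -0.1233 to 0.0317 for Socs4, -0.10 to 0.125 for Socs6, -0.1617 to 0.0233 for Socs7 and -0.1683 to 0.1467 for Cish. Between responses it gave -0.0367 to 0.2233 for Socs1, -0.395 to 0.03 for Socs2, -0.1133 to 0.0683 for Socs4, -0.075 to 0.2217 for Socs6 and -0.0583 to 0.1267 for Socs7. The cause of these sign changes was not tested.

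With the replicate block the LPS comparison called 3 genes of the family for ficolin KO and 4 for WT mice, as without it, and 0 in the other comparisons. Arrays with the same number deviated from their group means with correlations of -0.22 to 0.25 across genes (18 pairs), against -0.23 to 0.21 for other pairs (36). No pairing by number was seen there. Deviations from means of 3 arrays cannot exclude one, and the labels give the number alone. Over all genes, the count between genotypes was 41 in naive mice and became 17 by ordinary least squares, 20 without dim genes, 1 with the adjusted p alone and 40 to 110 without 1 array. After LPS challenge it was 102 and became 46, 66, 3 and 99 to 208, and 370 with the pancreas covariate. With the adjusted p alone 6152 genes were called with LPS in ficolin KO mice (1914 with the fold criterion) and 6670 in WT mice (1994).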
